A study of Mus musculus with 6 samples.

Results

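The nuclear genes of respiratory complex I were followed in mouse kidney after repeated oral exposure to cationic polystyrene nanoparticles. Members were the protein-coding genes whose Ensembl identifier maps to a mouse symbol that starts with Nduf. Of 51 such symbols in the gene tables, 46 are protein-coding in the GENCODE annotation used for names, and these 46 of 57180 listed genes are described here as 7 core subunits, 31 accessory subunits and 8 assembly factors (Ndufaf). The other 5 symbols, Ndufb1-ps, Ndufb4c, Ndufa11b, Ndufs6b and Ndufab1-ps, are annotated there as noncoding or as pseudogenes and are taken up at the end. All 46 members passed the filter on low counts and were among the 18092 genes tested.

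Complex I takes electrons from NADH, passes them along iron-sulfur clusters to ubiquinone and pumps protons across the inner mitochondrial membrane. Its catalytic core is encoded partly in the nucleus and partly in mitochondrial DNA, accessory subunits surround that core, and assembly factors help to build the complex without remaining in it. The proximal tubule, which makes up much of the kidney cortex, is rich in mitochondria and relies on oxidative phosphorylation for reabsorption.

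All mice were wildtype C57BL/6J males, 7 weeks old when obtained. The vehicle group received deionized water (0 mg/kg, 3 mice) and the nanoplastic group received the particles at 200 mg/kg (3 mice), in both cases by mouth, once daily, over 6 weeks. Total RNA of the kidney of each mouse gave 1 library, and the labels describe 3 mice per group. The single comparison, nanoplastic against vehicle, asks which kidney transcripts differed after exposure, and the series title names mitochondrial dysfunction in tubular epithelium. Whole tissue was sequenced, so the values average over all cell types of the kidney.

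Libraries held 19408534 to 26292760 expected counts, and the complex I members took 0.482% to 0.531% of them. The libraries were kidney by their markers, since the 10 proximal tubule markers summed to 21999 to 22673 CPM, a count scaled by library size, in vehicle and 19615 to 23629 CPM in nanoplastic libraries. The library nanoplastic 1 had the lowest of these sums, and it stood apart in other markers too. Adipoq, the fat cell hormone adiponectin, had 0, 1 and 130 counts in vehicle 1, 2 and 3 and 444, 0 and 2 in nanoplastic 1, 2 and 3. The 8 white adipocyte markers summed to 43.7 to 85.1 CPM in vehicle and to 226, 45.6 and 41.4 CPM in nanoplastic 1, 2 and 3, and Plin1, the coat protein of fat droplets, was at 0 counts in all libraries except vehicle 3 and nanoplastic 1. The 6 urothelium markers summed to 18.4 CPM in nanoplastic 1 and to 1.78 to 5.46 CPM elsewhere. Results are therefore also given without nanoplastic 1, and without both vehicle 3 and nanoplastic 1.

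RefSeq promoter windows of 300 bases, 250 before and 50 after the transcript start (build GRCm38.p6), matched 40 of the 46 members, and they were searched on both strands for the letters of 4 factors known for respiratory chain genes. AAGATGGC (YY1) was in 8 of 40 windows (20%, against 2.88% of 27025 promoters), GCATGCGC (NRF1) in 5 (12.5% against 2.80%), CCGGAAG (GABPA) in 6 (15% against 9.12%) and TCAAGGTCA (the estrogen-related receptors) in 0 (0% against 0.407%). At least 1 of these was in 18 of 40 members' windows (45%) and in 14.1% of all promoters. The 8 YY1 matches are shown because all of them lay in the same place and orientation. Each began at position 11 to 39 of the transcript, counted from 1 at its start, and read as written in the direction of transcription. A place after the start in that orientation held for 32.4% of the 800 matches over all promoters. The match, in capitals, contains the letters ATG, so that it can coincide with a start codon, and no match overlapped one of the other 3 motifs.
Ndufa3 (chr7:3617384-3617413, plus strand): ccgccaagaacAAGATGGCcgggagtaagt
Ndufa9 (chr6:126849097-126849126, minus strand): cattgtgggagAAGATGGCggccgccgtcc
Ndufb8 (chr19:44555393-44555422, minus strand): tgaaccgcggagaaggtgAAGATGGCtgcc
Ndufc1 (chr3:51408915-51408944, minus strand): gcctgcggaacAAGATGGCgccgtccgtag
Ndufs4 (chr13:114388045-114388074, minus strand): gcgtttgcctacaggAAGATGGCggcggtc
Ndufs6 (chr13:73328433-73328462, minus strand): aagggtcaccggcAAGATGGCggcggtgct
Ndufs7 (chr10:80249462-80249491, plus strand): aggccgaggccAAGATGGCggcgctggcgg
Ndufaf8 (chr11:120098933-120098962, plus strand): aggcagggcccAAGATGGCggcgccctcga

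The NRF1 letters were in the windows of Ndufa6, Ndufa8, Ndufa11, Ndufaf4 and Ndufaf5. The 250 bases before the start of Ndufa8 and Ndufaf4 are shown because, among members with a motif match, these had the lowest unadjusted p in the comparison of the groups. Capitals mark NRF1 matches. The letters of this motif are close to their own reverse complement, so the run of capitals in Ndufaf4 is a pair of overlapping matches, 1 on each strand. Another NRF1 match of Ndufaf4 begins at position 2 of the transcript and is outside the stretch shown.
Ndufa8 (chr2:36049339-36049588, minus strand): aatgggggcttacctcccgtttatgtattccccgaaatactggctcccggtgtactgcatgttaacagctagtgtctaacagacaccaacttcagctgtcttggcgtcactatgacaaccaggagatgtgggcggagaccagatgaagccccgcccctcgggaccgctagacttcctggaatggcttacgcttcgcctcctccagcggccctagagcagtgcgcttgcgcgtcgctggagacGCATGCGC
Ndufaf4 (chr4:24897833-24898082, plus strand): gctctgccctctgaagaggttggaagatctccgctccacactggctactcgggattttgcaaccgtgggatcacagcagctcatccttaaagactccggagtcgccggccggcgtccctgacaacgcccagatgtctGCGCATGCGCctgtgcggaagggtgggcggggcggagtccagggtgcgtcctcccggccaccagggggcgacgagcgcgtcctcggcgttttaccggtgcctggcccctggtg

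No complex I member passed the test over all genes. With edgeR's quasi-likelihood test and Benjamini-Hochberg adjustment 0 of 46 members, and 0 of the 18092 genes tested (0%), passed an adjusted p of 0.05. Ndufa8 had the lowest adjusted p of the members, 0.652. Limma-voom also called 0 members and 0 of 18092 genes, and DESeq2 called 0 members and 55 of the 31335 genes with any count. At an unadjusted p under 0.05, 3 of 46 members were lower in nanoplastic kidneys (Ndufa8, Ndufaf4 and Ndufa1) and 0 were higher, where 3.5% of all genes tested were lower at that level. Of the 18092 genes tested, 668 were higher at that level. The log2 fold change was negative in 43 members and positive in 3, a split that moved to 36 and 10 with scaling by library totals alone and to 34 and 12 in TPM. Over all genes tested 48.1% were negative, and this share also moved with the scaling, to 36.3% with library totals and 33.6% in TPM. The median of all members minus that of all genes was -0.09 as reported, -0.09 with library totals and -0.10 in TPM. In whole tissue, fewer cells of a type and less RNA per cell cannot be told apart.

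The fold changes were small and the intervals narrow. The median log2 fold change was -0.07 for the core, -0.09 for the accessory subunits and -0.11 for the assembly factors, and it was 0.01 for all genes tested. For 45 of 46 members (97.8%) the 95% interval of the fold change lay within 1.5-fold in either direction, as it did for 63.1% of all genes tested. Ndufa4l2 was the exception. The share was 100% in complexes II, III, IV and V and in the mitochondrial ribosomal proteins. For core subunits encoded in mitochondrial DNA it was 71.4%. Ndufs1, for example, had an interval from -0.25 to 0.07 in log2, so a small change in either direction was within it.

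**Figure D1:**
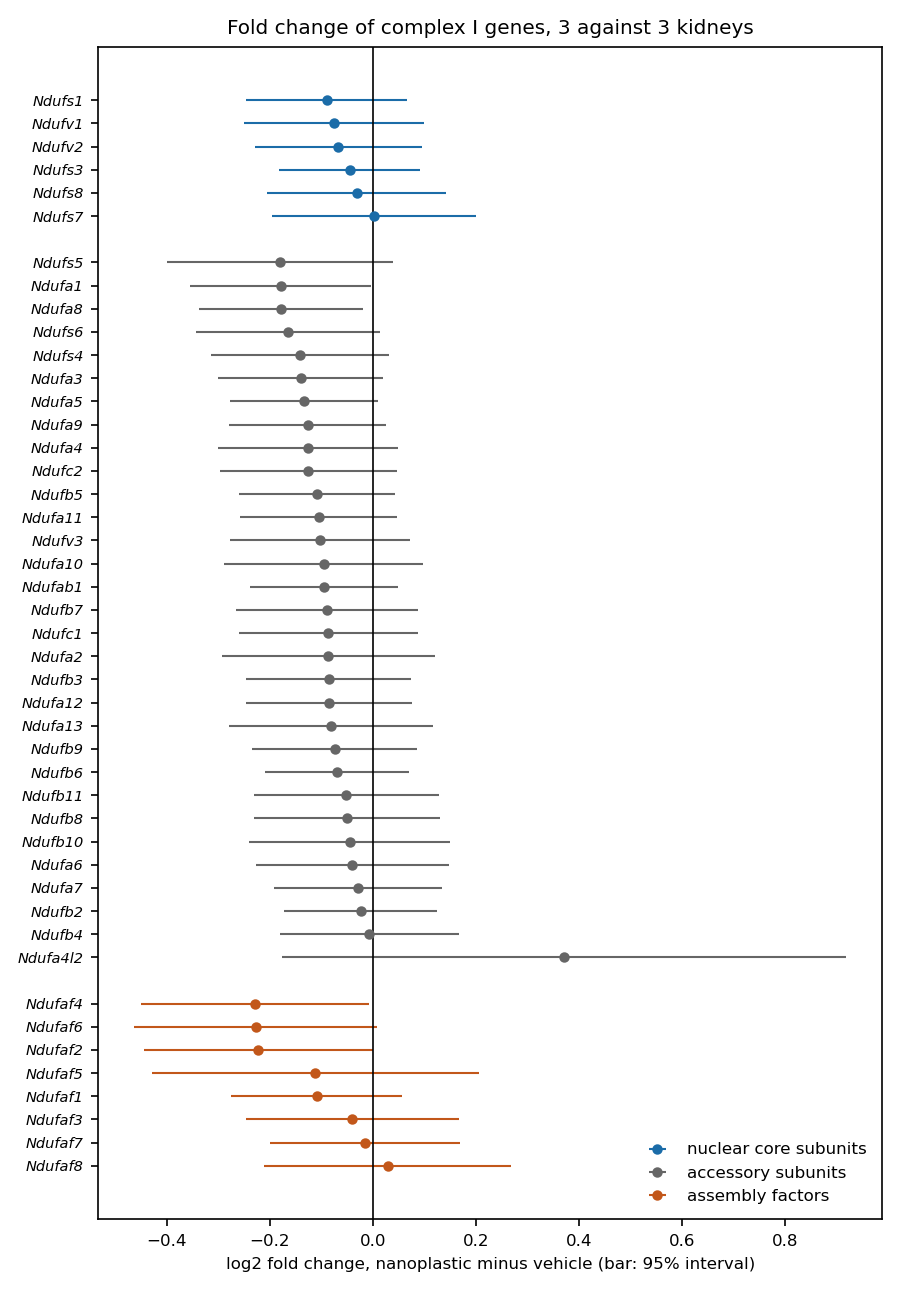
Log2 fold change of 45 complex I genes, nanoplastic minus vehicle (x axis), with its 95% interval as a bar, for 3 against 3 kidneys from edgeR, in blocks of core, accessory and assembly genes. Most dots lie left of 0, 42 of 45 with this scaling and fewer in TPM, while the intervals exclude 0 only for Ndufa1, Ndufa8 and Ndufaf4, none of which passed after adjustment.

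The nuclear core subunits carry the cofactors of the arm that reaches into the matrix. Ndufv1 binds NADH and the flavin that takes its electrons. It measured 334, 319.9 and 288 CPM in vehicle 1, 2 and 3 and 277, 298 and 319 CPM in nanoplastic 1, 2 and 3. The groups overlapped, with nanoplastic 1 lowest and nanoplastic 2 and 3 both above vehicle 3 (log2 fold change -0.08, SE 0.08). Ndufv2, its iron-sulfur partner in the NADH module, measured 163, 168 and 148 CPM in vehicle and 142, 158 and 157 CPM in nanoplastic libraries. Vehicle 3 again lay below nanoplastic 2 and 3 (log2 fold change -0.07, SE 0.07).

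Ndufs1, the largest subunit and a carrier of iron-sulfur clusters, measured 378, 389.9 and 355 CPM in vehicle and 328, 361 and 366 CPM in nanoplastic libraries. Nanoplastic 1 was the lowest, and vehicle 3 lay below nanoplastic 2 and 3 (log2 fold change -0.09, SE 0.07, edgeR adjusted p = 0.808).

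Ndufs3, a subunit of the module that reduces ubiquinone, varied little. It measured 125, 129 and 125 CPM in vehicle and 118, 127 and 123 CPM in nanoplastic libraries, a range that overlapped between groups (log2 fold change -0.04, SE 0.06). Ndufs8, an iron-sulfur subunit of the same module, measured 104, 97.5 and 89.3 CPM in vehicle and 88.0, 99.4 and 97.5 CPM in nanoplastic libraries. The lowest library of each group, vehicle 3 and nanoplastic 1, lay together (log2 fold change -0.03, SE 0.08). Ndufs7, which holds the last cluster before ubiquinone, measured 51.4, 49.8 and 43.5 CPM in vehicle and 44.7, 46.9 and 53.5 CPM in nanoplastic libraries. Its highest library was nanoplastic 3, and the group means were 48.2 ± 4.13 and 48.4 ± 4.60 CPM (SD, n = 3 each). Its 95% interval extended from -0.20 to 0.20 in log2.

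Among the 31 accessory subunits 30 had a negative log2 fold change and 0 passed the test, and 2 of them, Ndufa8 and Ndufa1, had an unadjusted p under 0.05. Ndufa8, a small protein with paired cysteines that faces the intermembrane space, measured 65.2, 60.0 and 58.2 CPM in vehicle and 57.0, 52.1 and 53.0 CPM in nanoplastic libraries. Every nanoplastic library lay below every vehicle library, with vehicle 3 and nanoplastic 1 next to each other (log2 fold change -0.18, SE 0.07, edgeR unadjusted p = 0.031). Ndufa1, a small membrane subunit encoded on the X chromosome, measured 90.4, 87.6 and 77.7 CPM in vehicle and 69.8, 76.3 and 79.8 CPM in nanoplastic libraries. Here nanoplastic 3 lay above vehicle 3, so the groups overlapped (log2 fold change -0.18, SE 0.08, edgeR unadjusted p = 0.047). Ndufa5, a subunit of the matrix arm, measured 65.0, 64.7 and 59.7 CPM in vehicle and 57.4, 56.8 and 58.3 CPM in nanoplastic libraries. The groups did not overlap, and the gap between vehicle 3 and nanoplastic 3 was small beside the spread of the vehicle group (log2 fold change -0.13, SE 0.06).

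Ndufs6, the zinc-binding subunit of the NADH module, measured 55.1, 55.7 and 47.1 CPM in vehicle and 48.8, 47.5 and 44.5 CPM in nanoplastic libraries. Vehicle 3 lay among the nanoplastic libraries (log2 fold change -0.16, SE 0.08). Ndufa3, a small membrane subunit, measured 85.1, 85.7 and 74.2 CPM in vehicle and 73.3, 74.7 and 74.5 CPM in nanoplastic libraries. Vehicle 3 was again at the level of the nanoplastic group (log2 fold change -0.14, SE 0.07). Ndufa9, a subunit near the ubiquinone site, measured 181, 177 and 167 CPM in vehicle and 151, 159.6 and 171 CPM in nanoplastic libraries. Nanoplastic 3 exceeded vehicle 3 (log2 fold change -0.13, SE 0.07). Ndufab1, the acyl carrier protein of the mitochondrion as well as a subunit, measured 71.6, 74.4 and 77.5 CPM in vehicle and 67.0, 70.8 and 71.5 CPM in nanoplastic libraries. It was highest in vehicle 3, unlike most members, and the groups touched without overlapping (log2 fold change -0.09, SE 0.06).

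The other accessory subunits had log2 fold changes between -0.18 and -0.01, apart from the pair Ndufa4 and Ndufa4l2. The most negative was Ndufs5, another intermembrane protein with paired cysteines, at -0.18 (SE 0.10). Ndufb4 stood at the other end at -0.01 (SE 0.08), but its reads are uncertain because of a copy described below. Groups that did not overlap were seen for 3 accessory subunits, Ndufa8, Ndufa5 and Ndufab1, and for the assembly factor Ndufaf2. These 4 of 46 members were all lower in nanoplastic libraries, where 6.32% of all genes tested lay apart in that direction, and 0 members lay apart in the higher direction, against 6.54% of all genes.

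Ndufa4 and Ndufa4l2 are paralogs. Ndufa4 carries a complex I name but is now regarded as a subunit of cytochrome c oxidase (complex IV), and Ndufa4l2 is known as a target of hypoxia signalling. Ndufa4 measured 427, 414 and 376 CPM in vehicle and 339, 385 and 392 CPM in nanoplastic libraries. Nanoplastic 2 and 3 lay above vehicle 3, and nanoplastic 1 was lowest (log2 fold change -0.13, SE 0.08). Ndufa4l2 measured 1.48, 1.26 and 1.57 CPM in vehicle and 1.71, 2.30 and 1.56 CPM in nanoplastic libraries, from 38, 29 and 37 counts and 42, 55 and 30 counts. Nanoplastic 2 was the highest and nanoplastic 3 lay inside the vehicle range, so the largest positive fold change of the family (0.37 in log2, SE 0.25, 95% interval -0.18 to 0.92, edgeR adjusted p = 0.770) rested on few counts. The median of the accessory subunits was the same to 2 decimals without this pair (-0.09).

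**Figure D2:**
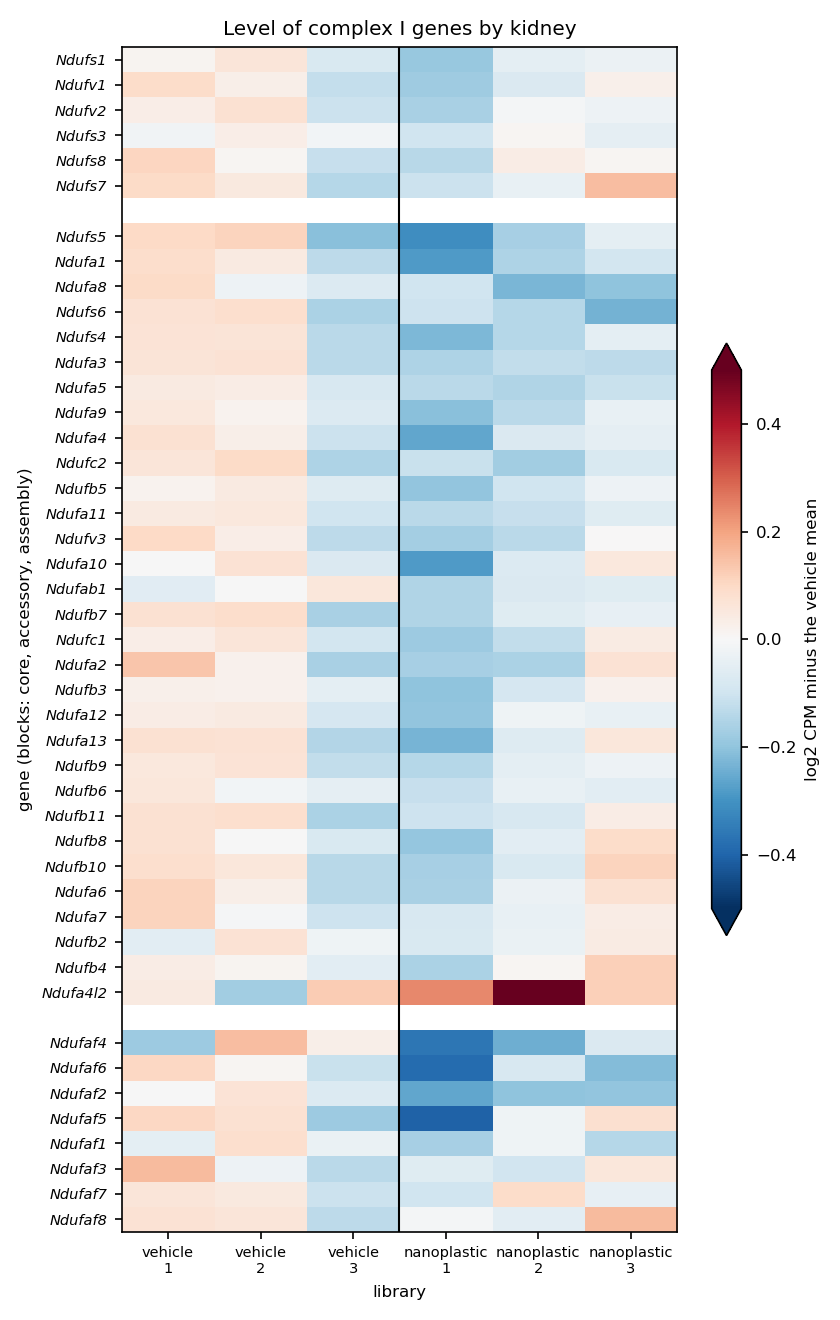
Level of 45 complex I genes (rows, in blocks of core, accessory and assembly genes) in each of the 6 libraries (columns), as log2 CPM minus the mean of the 3 vehicle libraries, blue for lower and red for higher. Vehicle 3 and nanoplastic 1 are blue in most rows, nanoplastic 2 is a paler blue in most rows, and nanoplastic 3 is pale. Ndufa4l2 in nanoplastic 2 lies beyond the end of the colour scale.

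The assembly factors act at different steps. Ndufaf4, which with Ndufaf3 helps to build the module that reduces ubiquinone, measured 47.7, 60.1 and 55.2 CPM in vehicle and 42.1, 45.6 and 51.5 CPM in nanoplastic libraries. Its low vehicle library was vehicle 1, not vehicle 3, and nanoplastic 3 lay above it (log2 fold change -0.23, SE 0.10, edgeR unadjusted p = 0.044, adjusted p = 0.683). Ndufaf2, a paralog of the accessory subunit Ndufa12 that acts late in assembly, measured 10.4, 10.9 and 9.90 CPM in vehicle and 8.65, 9.02 and 9.05 CPM in nanoplastic libraries. All 3 nanoplastic libraries lay below all 3 vehicle libraries (log2 fold change -0.22, SE 0.10, edgeR adjusted p = 0.691). Ndufaf6, an early assembly factor, measured 15.4, 14.4 and 13.2 CPM in vehicle and 10.9, 13.5 and 12.3 CPM in nanoplastic libraries. Nanoplastic 2 just exceeded vehicle 3 (log2 fold change -0.23, SE 0.11).

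Ndufaf5, which hydroxylates an arginine of Ndufs7, measured 10.8, 10.6 and 8.84 CPM in vehicle and 7.55, 9.89 and 10.6 CPM in nanoplastic libraries. The low value of nanoplastic 1 decided its sign, since the log2 fold change was -0.11 (SE 0.14) in all libraries and 0.025 without nanoplastic 1. The remaining members were Ndufaf1 at -0.11 (SE 0.07), Ndufaf3 at -0.04 (SE 0.09), Ndufaf7, a methyltransferase, at -0.02 (SE 0.08), and Ndufaf8, a partner of Ndufaf5, at 0.03 (SE 0.11). None of the 8 had an adjusted p under 0.05.

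The levels of the members, which were compared per kilobase of effective length, separated the assembly factors from the subunits. Ndufa4 was the most abundant at 992.6 CPM per kb (mean of 6 libraries, SD 79.3), followed by Ndufb8 at 499 (SD 36.2) and Ndufb9 at 462 (SD 28.0), whose libraries overlapped in range. In the nuclear core Ndufs7 was lowest at 88.0 CPM per kb (SD 7.13), and Ndufv1 stood at 235 (SD 16.7). All 8 Ndufaf members lay between 10.3 CPM per kb (Ndufaf5, SD 1.36) and 26.8 (Ndufaf4, SD 3.52), below each core and each accessory subunit except Ndufa4l2, which was lowest at 2.31 (SD 0.49). Ndufa8 and Ndufs7, the next subunits upward at 87.4 and 88.0 CPM per kb, overlapped in the range of their libraries. Across the 46 members the log2 fold change and effective length gave a weak correlation, as a description (Pearson r -0.04, Spearman rho 0.10 across genes, which are not independent replicates).

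**Figure D3:**
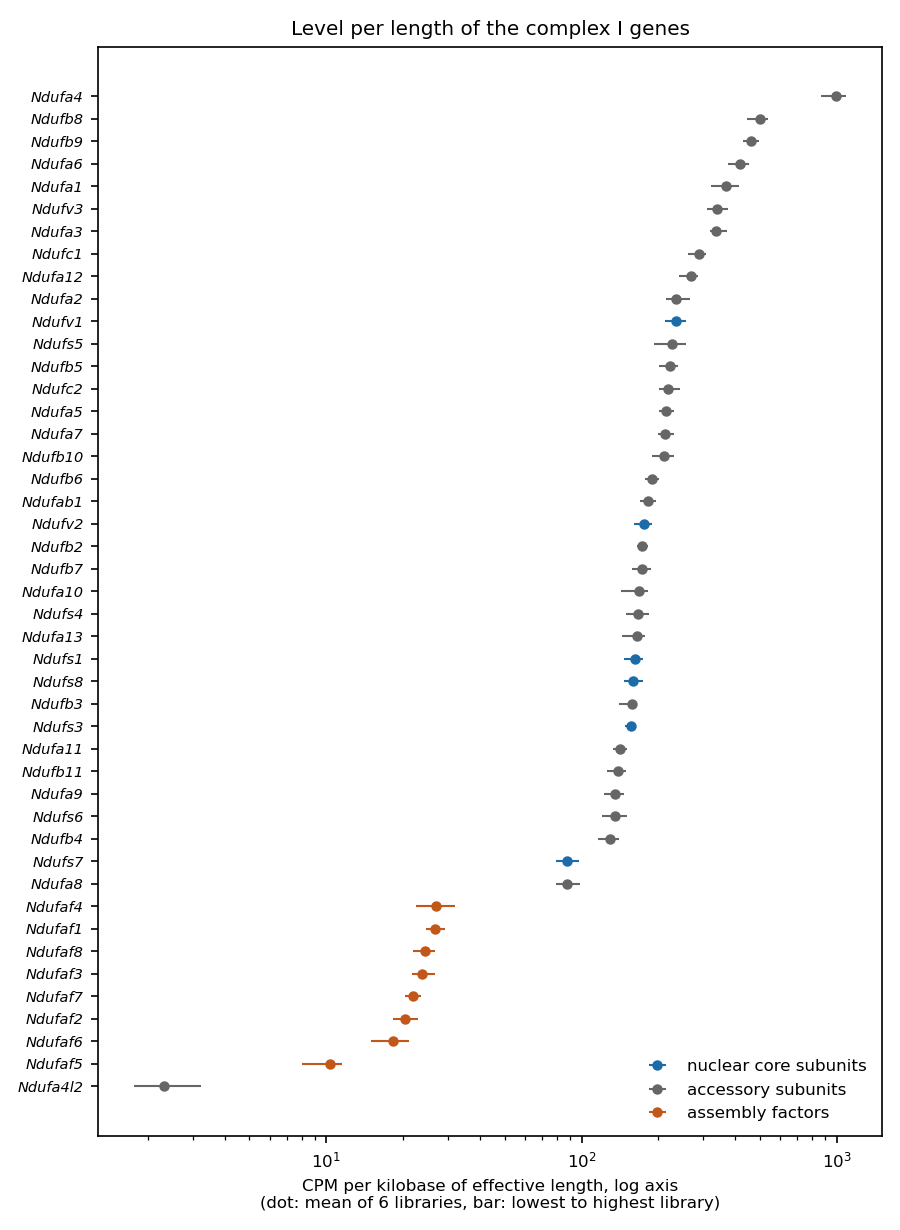
Level per length of 45 complex I genes in CPM per kilobase of effective length (log axis), as the mean of 6 libraries (dot) with the range from the lowest to the highest library (bar). The 8 assembly factors lie between 10.3 and 26.8, and the subunits drawn lie at 87.4 or above, except Ndufa4l2 at 2.31.

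Most members followed a common order of the libraries. The mean log2 level of all members, relative to the vehicle mean, was 0.05, 0.04 and -0.10 in vehicle 1, 2 and 3 and -0.17, -0.07 and -0.02 in nanoplastic 1, 2 and 3. Vehicle 3 thus lay below nanoplastic 2 and 3, and nanoplastic 1 below all others. Vehicle 3 was the lowest vehicle library in 40 of 46 members, nanoplastic 1 was the lowest of its group in 39 and the lowest of all 6 in 34, and nanoplastic 3 exceeded vehicle 3 in 35. The summed level of the 46 members was 5442, 5413 and 4891 CPM in vehicle and 4618, 4977 and 5211 CPM in nanoplastic libraries, or 5249 ± 310.0 against 4935 ± 299 CPM (SD, n = 3 each), a difference close to the spread within a group.

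The 3 classes gave the same picture. The core scored 0.05, 0.04 and -0.10 in vehicle and -0.15, -0.03 and 0.01 in nanoplastic libraries, the accessory subunits 0.06, 0.04 and -0.10 and then -0.16, -0.07 and -0.01, and the assembly factors 0.03, 0.06 and -0.09 and then -0.22, -0.08 and -0.05. Nanoplastic 1 was the lowest library in each class. Without it the medians were -0.018 for the core, -0.04 for the accessory subunits and -0.05 for the assembly factors, and 34 members were negative, beside 49.9% of all genes. Without vehicle 3 they were -0.12, -0.14 and -0.16, with 45 members negative, beside 47.5% of all genes, 11 lower at an unadjusted p under 0.05, beside 4.03% of all genes, and 0 called, as of all genes. Without vehicle 2 the core stood at -0.03 and the assembly factors at -0.07, and without nanoplastic 3 the accessory subunits stood at -0.14. Without both vehicle 3 and nanoplastic 1, which left 2 libraries in each group, the medians were -0.07, -0.09 and -0.09, with 44 members negative, beside 49.6% of all genes, 6 lower at an unadjusted p under 0.05, beside 4.44%, and 0 called, beside 0.149%. The markers of fat and urothelium were high in nanoplastic 1, and the proximal tubule markers were lowest there. The 5 collecting duct principal cell markers summed to 281 CPM there against 174 to 195 CPM elsewhere. This high sum rested on Aqp2, at 149 CPM in nanoplastic 1 against 43.3 to 61.7 CPM elsewhere. Scnn1b was lowest in nanoplastic 1, at 31.1 CPM against 34.6 to 36.8 CPM elsewhere. In nanoplastic 1 Aqp3 and Scnn1g lay within the range of the other libraries, and Hsd11b2 was narrowly highest there. None of the following markers passed the test. Of the 5 principal cell markers 3 were positive and 2 negative, with a median log2 fold change of 0.18. Of the 10 proximal tubule markers 3 were positive and 7 negative, with a median of -0.01. Aqp3 at 0.23 and the proximal tubule marker Slc5a12 at 0.19 had groups that did not overlap, with nanoplastic libraries higher. Their edgeR adjusted p was 0.594 and 0.636. The 5 erythrocyte markers, of which 5 were negative, had a median log2 fold change of -0.49. They summed to 579 to 861 CPM in vehicle and 488 to 626 CPM in nanoplastic libraries, sums that overlapped. Hbb-bt at -0.59 and Alas2 at -0.51 had groups that did not overlap (edgeR adjusted p = 0.432 and 0.516). The 6 macrophage markers, of which 6 were negative, summed to 174 to 189.8 CPM and 166 to 169 CPM, which did not overlap. Cd74, with a vehicle mean of 106 CPM beside 184 CPM for the sum, overlapped between groups. Of the single macrophage markers only C1qa, at -0.18, had groups that did not overlap (edgeR adjusted p = 0.712). The 5 thick ascending limb markers, of which 4 were negative, summed to 4969 to 6149 CPM and 4323 to 5145 CPM, and the 7 fibroblast and mural cell markers, of which 6 were negative, to 293 to 365 CPM and 257 to 329 CPM, and both overlapped. In the thick limb list Umod stood at -0.33 in log2 fold change (edgeR adjusted p = 0.542), with groups that did not overlap. Its mean was 3904 CPM in vehicle and 3116 CPM in nanoplastic libraries. Slc12a1 stood at 0.02, Kcnj1 at -0.04, Cldn16 at -0.03 and Cldn10 at -0.11. The collagen genes Col1a1 and Col3a1 stood at -0.69 and -0.72 (edgeR adjusted p = 0.176 for both), also with groups that did not overlap. Beside them Dcn stood at -0.23, Acta2 at -0.14, Pdgfrb at -0.06, Pdgfra at -0.002 and Myh11 at 0.19. The part of these cell types in the result was not tested.

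**Figure D4:**
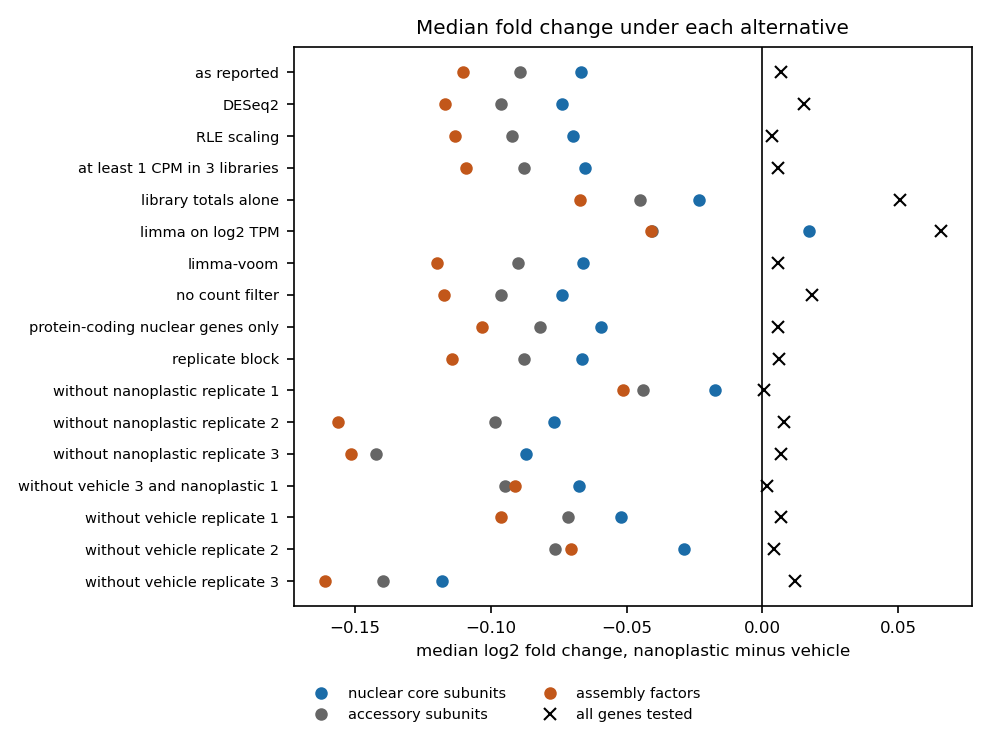
Median log2 fold change (x axis) of core subunits, accessory subunits and assembly factors, and of all genes tested (crosses), under each way of processing the data or leaving out libraries (y axis). Every class median lies left of the cross of its row, the core lies right of 0 in TPM (0.017), and in that row the accessory and assembly dots coincide at -0.04.

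The likeness of members over the 6 libraries is given as a description, since the libraries share their scaling. The median Pearson r of log2 CPM was 0.73 over all 1035 pairs of members. It was 0.82 among core subunits, 0.79 among accessory subunits and 0.50 among assembly factors. The members least like the others were Ndufa4l2 (median r -0.48), Ndufab1 (0.31), Ndufa8 (0.39) and Ndufaf4 (0.48). Of these Ndufa8, Ndufaf4 and Ndufab1 are also among the members described above for a low p or for groups that did not overlap.

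Members with and without a motif were set side by side. The median log2 fold change was -0.11 with and -0.09 without the NRF1 letters, -0.11 and -0.09 with and without the YY1 letters, and -0.06 and -0.10 with and without the GABPA letters. Among 10 regulators of respiratory chain genes, 0 passed the test, 7 were negative and the median was -0.03. Gabpb1, a partner of the GABPA factor, had a log2 fold change of -0.21 (SE 0.10) and the receptor gene Esrrg one of -0.11 (SE 0.08).

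The other genes of complex I and of the respiratory chain were given by lists. The 7 core subunits encoded in mitochondrial DNA had a median log2 fold change of -0.02, with 4 negative, 3 positive and 0 called. Their libraries were ordered otherwise than those of the nuclear core, with median log2 levels relative to the vehicle mean of -0.10, -0.11 and 0.21 in vehicle and -0.15, -0.02 and 0.15 in nanoplastic libraries, so that vehicle 3 was the highest. mt-Nd1 stood at -0.14 (SE 0.08), and mt-Nd4l, whose gene overlaps mt-Nd4, at 0.72 (SE 0.52) from at most 6.40 CPM in a library. Of 15 assembly genes without an Nduf name 14 were tested, with 9 negative, 0 called and a median of -0.04. Foxred1, which takes part in assembly, was the one with the lowest p and was positive at 0.15 (SE 0.08), and Tmem70 stood at -0.10 (SE 0.08).

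Complex II had a median of -0.09 (4 of 4 negative), complex III -0.11 (9 of 9), complex IV -0.09 (9 of 10), complex V -0.10 (14 of 15) and the mitochondrial ribosomal proteins -0.06 (55 of 78). None of these genes was called. The lowest unadjusted p in each belonged to Sdha at -0.10 (SE 0.06), Uqcrq at -0.24 (SE 0.09), Cox7c at -0.12 (SE 0.07), Atp5g3 at -0.14 (SE 0.06) and Mrpl34 at -0.17 (SE 0.07), followed by Sdhd at -0.10, Cyc1 at -0.13, Cox6a1 at -0.09, Atp5j2 at -0.15 and Mrpl20 at -0.18. No test of the differences between these lists and complex I was made. Short transcripts, which most complex I members have, had a median of -0.03 over 1653 nuclear protein-coding genes under 1000 bases of effective length, and 0.00 over the 12422 longer ones.

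**Figure D5:**
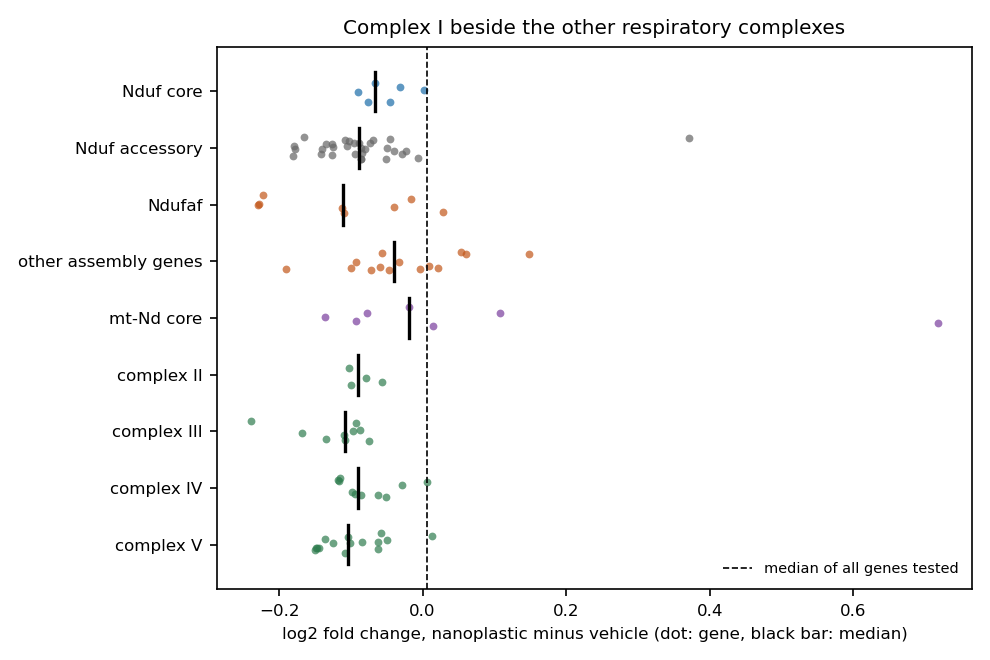
Log2 fold change, nanoplastic minus vehicle (x axis), of single genes (dots) with the median over all members of each list (black bar) for complex I classes, other assembly genes, mitochondrially encoded core subunits and complexes II to V, and the median of all genes tested (dashed line, 0.01). The medians of the nuclear subunit lists lie between -0.07 and -0.11, and the point far right is mt-Nd4l at 0.72.

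Of the symbols left out, Ndufb4c and Ndufb1-ps were expressed. Ndufb4c, a processed pseudogene in GENCODE, is 390 bases long and identical to Ndufb4 over 390 of 390 bases, so reads that fit both cannot be placed with certainty and both values are uncertain. It measured 50.4, 47.1 and 40.2 CPM in vehicle and 44.4, 46.7 and 48.4 CPM in nanoplastic libraries (log2 fold change 0.02, SE 0.09), beside 82.6, 81.3 and 77.5 CPM and 72.2, 81.0 and 87.4 CPM for Ndufb4. Both overlapped between groups. Ndufb1-ps, which RefSeq lists as the protein-coding subunit gene Ndufb1, measured 90.1, 93.5 and 77.5 CPM in vehicle and 75.0, 78.8 and 82.7 CPM in nanoplastic libraries. Vehicle 3 lay within the nanoplastic range (log2 fold change -0.14, SE 0.08). With both genes added to the accessory subunits the median was again -0.09. Ndufa11b, Ndufs6b and Ndufab1-ps had at most 3 counts in any library.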

How the data were processed

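Kidney RNA of 6 mice was sequenced on an Illumina NovaSeq X Plus, 1 library per mouse, with 3 vehicle and 3 nanoplastic libraries. The submitters' processing notes name the build GRCm39, RSEM 1.3.3, STAR 2.7.9a, Trim Galore 0.6.6 and FastQC. Neither the annotation release nor strandedness is given in the sources used here, and overlapping antisense transcripts cannot be told apart. The authors deposited an RSEM table per library with expected counts, which are not normalized, and TPM, per the file headers. The deposited TPM values scale counts by length and total and were used only in an alternative, and the deposited effective lengths served for levels per kilobase.

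Symbols came from GENCODE vM21, which is on another build, by gene ID for 51933 genes and by transcript for 760, while 4487 kept their ID. Expected counts were rounded (10 members had values off whole numbers by over 0.005 plus a small share of the count). They were then passed through filterByExpr and TMM scaling. The test over 18092 genes used edgeR 4.0.16 in R 4.3.3 (quasi-likelihood, group as the only term, Benjamini-Hochberg threshold 0.05). SE is the fold change divided by the root of F, and CPM is scaled by TMM. Class scores are mean log2 CPM (prior count 2) minus the vehicle mean. Intervals include the estimated variation between mice. Alternatives used DESeq2 1.42.0, limma 3.58.1, other scaling and filters, a replicate block and libraries left out. On simulated counts the edgeR script was tested as well.

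Members and lists were chosen with earlier results of these data known. Named singly were core subunits, the 6 accessory subunits and 3 Ndufaf members with the lowest p, the highest and lowest per length of each class, Ndufa4, Ndufa4l2, members whose groups lay apart, and the 2 genes with the lowest p of other lists. 1 item is not reported here. Others singled out were chosen after their values were seen. Promoter sequences are from RefSeq, build GRCm38.p6. Replicate pairs differed by more than sampling noise.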

Additional observations from a re-analysis of the deposited data

How the results depend on the processing

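Under 16 alternatives 0 members were called, and the lowest adjusted p of a member ranged from 0.311 (without vehicle 3 and nanoplastic 1) to 0.999 (without vehicle 2). Of the 31335 genes with any count, 207 were called without a count filter and 55 with DESeq2. There were 27 of 18144 without vehicle 3 and nanoplastic 1, 5 of 18495 without nanoplastic 1, 2 of 18643 without nanoplastic 3, and 0 under the others. Of 320 values of single members 306 kept their direction and call, and 14 values of 5 members changed sign. In limma on log2(TPM + 0.1) the core median was 0.017, Ndufs3 0.021, Ndufs8 0.017 and Ndufv1 0.044, while the median of all genes was 0.07. With library totals alone Ndufs8 was 0.012, and the class medians were -0.02, -0.045 and -0.07 against 0.05 for all genes. Ndufs7, at 0.0019, was -0.0050 with DESeq2, -0.0011 with RLE scaling, -0.0015 with limma-voom, -0.0052 without a count filter and -0.0087 without vehicle 3 and nanoplastic 1. The cause was not tested. Leaving out 1 library at a time gave -0.076 to 0.058 for Ndufs7, -0.088 to 0.023 for Ndufs8, -0.21 to 0.025 for Ndufaf5, -0.12 to -0.02 for the core median, -0.14 to -0.04 for the accessory median and -0.16 to -0.05 for the assembly median, and 34 to 45 negative members. A replicate block by number gave medians of -0.07, -0.09 and -0.11 with 43 negative and 0 called; same-numbered libraries deviated together with r of 0.04, -0.02 and 0.10, so the numbers were not taken to pair the mice. Adding or removing accessory genes was chosen after seeing the data and left the median at -0.09. Counts of 29 to 55 limit Ndufa4l2.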
